A study of Mus musculus with 4 samples.

Results

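The cytosolic ribosomal protein genes are described here across 6 classes of mouse retinal cells. They were picked by symbol: names of the form Rpl or Rps with a number, with Rpsa, Rplp0, Rplp1 and Rplp2, leaving out pseudogenes and the Rps6k kinases. The rule took 81 of the 16702 genes and unnamed loci in the isoform table. Of these, 77 are canonical ribosomal proteins and 4 are copies of such genes (Rpl7l1, Rpl22l1, Rpl39l and Rps27l), while the copies Rpl3l, Rpl10l and Rps4l are not among the genes of the table used here. The 81 genes hold 139 isoforms, 106 of them Ensembl transcripts and 33 outside the annotation.

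The cDNA came from 4 single-cell libraries of wild-type male C57BL6/J retina, read on a nanopore instrument. The labels give 2 libraries of whole dissociated retina, 1 at postnatal day 40 and 1 with no age, 1 library with the treatment CD73 enrichment at week 8, in which the protocol kept CD73-negative cells after removing photoreceptors, and 1 library of cells positive for CD90.2 at month 4. The table gives whole-number counts per isoform for amacrine cells, bipolar cells, cones, Müller glia, rods and retinal ganglion cells. Each class is a single column with no split by library, and which libraries feed it is not stated, so there is no replicate and no test between classes. Intervals below are exact 95% intervals (Clopper-Pearson for shares, Poisson for counts) and cover counting error only. They take each count as independent, and whether amplification copies were collapsed is not stated. Class, age, library and enrichment cannot be told apart, and neither can fewer cells of a type and less RNA per cell.

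The columns ran from 3509890 counts in ganglion cells to 55437340 in rods. All 36 class markers checked were highest in their own column. All 6 rod markers were at 0 in the ganglion cell column, and their summed level was 140 CPM (counts scaled to a column total of 1000000) in amacrine cells and 377 in bipolar cells, against 1278 in Müller glia, 899 in cones and 21710 in rods. In the ganglion cell column 5 of 6 cone, 4 of 6 bipolar and 4 of 6 Müller glia markers were also at 0. In the Müller glia column, of 6133094 counts, 0 of the 6 rod markers were at 0. Whether the ganglion cell column was filtered otherwise is not stated, so a 0 there need not mean absence. Upper limits given for such a 0 cover counting error only. The Müller glia column also held markers of other cells: 10272 CPM over 3 red cell genes, 8552 CPM over 4 pigment epithelium genes and 1325 CPM over 6 microglia genes. Red cell genes reached 2114 CPM in rods and 1229 in bipolar cells, and at most 217 CPM in the other 3 classes. The part of these cells in the values below was not tested.

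A ribosome is built of a small and a large subunit, each a folded ribosomal RNA clad in proteins, and the proteins of these subunits are named Rps and Rpl. Their messenger RNAs are among the most abundant of any cell and begin with a run of pyrimidines, through which the mTOR pathway adjusts their translation. Rps24 encodes a protein of the small subunit that is needed to process its RNA, and in humans it is mutated in Diamond-Blackfan anaemia. Its transcripts are known to take up or skip very short exons near the end of the coding sequence.

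The isoform result turned on 1 such exon of Rps24. The gene lies on chromosome 14 at 24487125 to 24496959 (mm10, plus strand), and the exon, exon 5 of 7 in the model, covers 24494052 to 24494069, a length of 18 nt. The transcripts ENSMUST00000223999.1 and ENSMUST00000169826.2 differ only by this exon. The stretches around it are printed from the GENCODE M21 transcripts, 5′ to 3′, with the exon in capitals, because they carry the switch.
Rps24 with the exon: aaaaagAAATGAAATACCTAGCAGtgagtg
Rps24 without the exon: ggtgctggcaaaaagtgagtggagattgga
In M21 the stop codon lies inside the exon when it is present (24494055 to 24494057) and at the start of the next exon, of 20 nt, when it is skipped (24495430 to 24495432). The coding sequence is 393 nt with the exon and 390 nt without it, or 131 and 130 residues. With the exon the reading frame thus ends 1 codon later, and the rest of the exon lies after the stop.

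The exon was present in nearly all Rps24 transcripts of photoreceptors and in few of amacrine cells. The form with the exon made up 90.8% of 231425 Rps24 counts in rods (90.7 to 90.9), 91.1% of 24614 in cones (90.8 to 91.5) and 80.1% of 10785 in ganglion cells (79.4 to 80.9). It made up 42.4% of 211501 counts in bipolar cells (42.2 to 42.6), 20.8% of 33307 in Müller glia (20.3 to 21.2) and 7.65% of 171878 in amacrine cells (7.53 to 7.78). The intervals of rods and cones overlapped, and those of no other neighbours in this order did. Ganglion cells were nearest to photoreceptors, and amacrine cells, which are also inner-retinal neurons, were at the opposite end, for reasons not tested. The form without the exon ranged accordingly from 8.88% in cones to 92.3% in amacrine cells. The level of the gene had another order: 7291 CPM in bipolar cells, 5431 in Müller glia, 4175 in rods, 3562 in amacrine cells, 3368 in cones and 3073 in ganglion cells.

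**Figure D1:**
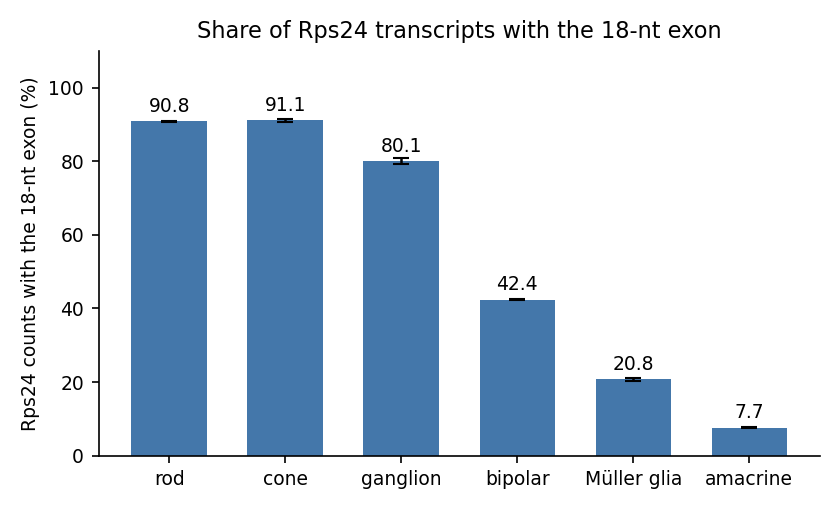
Share of Rps24 counts on the transcript with the 18-nt exon (vertical axis, percent) in each cell class, 1 pooled column a class. Error bars are exact 95% binomial intervals and cover counting error only. Rods and cones stand above 90%, amacrine cells at 7.65%.

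Most ribosomal protein genes had little to switch. Only 30 of the 81 (37.0%) had 2 or more isoforms, against 68.1% of all 13452 Ensembl genes of the table, and 51 had a single isoform. Of the 30, 28 had at least 100 counts in 2 or more classes and could be compared. In 10 of the 28, 1 isoform's share differed by 10 percentage points or more between classes, a share of 35.7% against a background of 71.9% of all 4781 genes compared. Of the 28, 3 changed their main isoform with a difference of at least 50 points (Rps24, Rpl21 and Rps14), beside a background of 10.2%. The median of the largest difference was 7.44 points in the 28 members and 18.1 points in all genes. Rps24 ranked 77 of 4781 by that difference. In these comparisons the members and all genes were not matched for depth or for number of isoforms. Among the 7 genes with at least 10000 counts in every class Rps24 was the 1 gene past 10 points. The next, Fau, which encodes ribosomal protein S30 as a fusion, differed by 4.04 points.

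**Figure D2:**
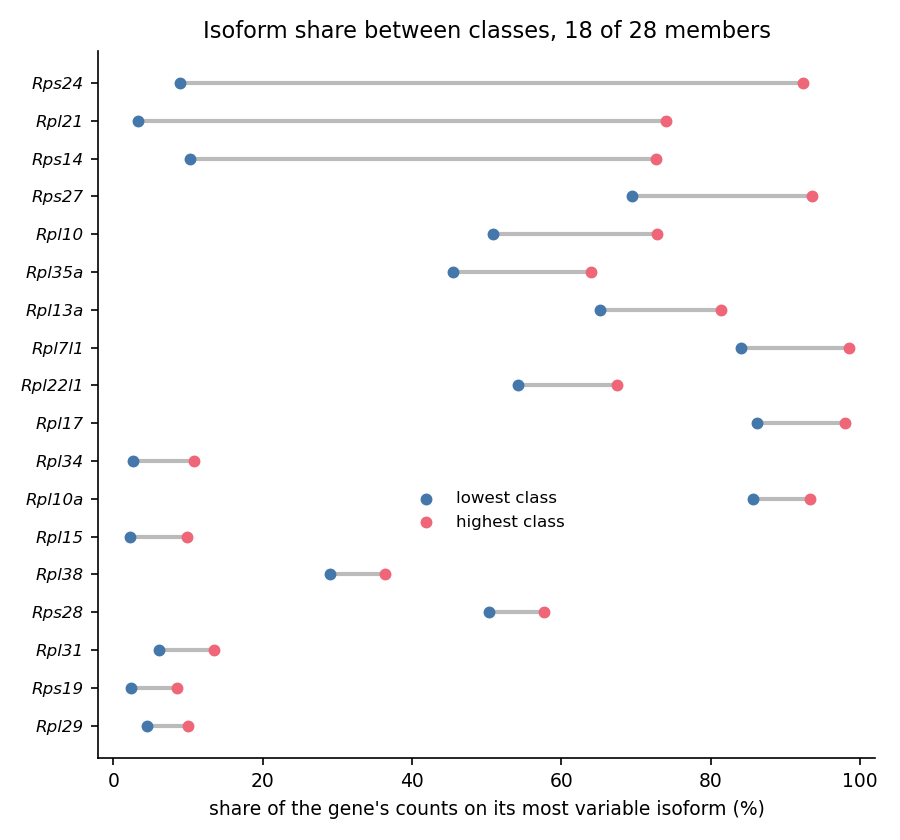
For the 18 of 28 members whose isoform share differed by at least 5 points, the share of the gene's counts on its most variable isoform (horizontal axis, percent) in the class with the lowest and the class with the highest share, joined by a line. Rps24, Rpl21 and Rps14 span more than 50 points, and the 10 members not drawn differ by under 5 points.

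Rpl21 and Rps14 switched between forms of the first exon, on far fewer counts than Rps24. Rpl21, a protein of the large subunit (chromosome 5, 146832890 to 146837032, plus strand), had 3 forms with first exons of 26, 421 and 595 nt and the same coding sequence of 480 nt. The 595-nt form held 74.0% of 269 counts in ganglion cells (68.3 to 79.1) and 43.0% of 3883 in amacrine cells (41.4 to 44.6). It held 21.1% of 289 in cones, 18.9% of 2187 in rods, 11.1% of 1365 in bipolar cells and 3.26% of 215 in Müller glia. Ganglion and amacrine cells were thus the 2 high classes, and the 26-nt form was the main one elsewhere.

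Rps14, which binds the RNA of the small subunit's platform, lies on chromosome 18 at 60747098 to 60778546 (plus strand) and had a first exon of 22 or 117 nt before the same 453-nt coding sequence. The 117-nt form held 72.6% of 117 counts in ganglion cells (63.6 to 80.5), 49.8% of 1232 in amacrine cells, 33.1% of 242 in cones, 28.9% of 239 in Müller glia, 20.4% of 750 in rods and 10.3% of 1821 in bipolar cells. The order again put ganglion and amacrine cells first. In Müller glia and bipolar cells an unannotated form, which starts at 60747098 where the others start at 60774665, held 22.2% and 16.2%, against 0 of 242 counts in cones (at most 1.51%) and 0 of 117 in ganglion cells (at most 3.10%). In rods and amacrine cells the 22-nt and 117-nt forms together held 621 of 750 and 1102 of 1232 counts. The rest lay on unannotated forms. Without the ganglion cell column only Rps24 met the 50-point rule, as it did when 1000 counts a class were asked for.

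The same kind of difference, a longer or shorter first exon before an unchanged chain of further exons, was found in 14 members. In 13 of them both forms together had at least 100 counts in every class. The long form was highest in amacrine or ganglion cells in 8 of 13 (61.5%), beside a background of 56.3% of the 183 genes of the table with such a pair, so the members did not stand out by that order. Its share differed by 10 points or more in 4 of 13 (30.8%), beside 54.6% of the 183 genes. Rps27, a zinc-finger protein of the small subunit, was such a case: its 266-nt form, which M21 lists as a retained intron without a coding sequence, held 93.6% of Rps27 counts in ganglion cells, 91.5% in amacrine cells, 81.2% in bipolar cells, 79.4% in Müller glia, 71.0% in cones and 69.4% in rods. In Rpl35a the 74-nt first exon ranged from 33.8% of counts in cones to 51.9% in amacrine cells, and the 29-nt form from 45.5% in amacrine cells to 64.0% in cones. The long forms of Rpl34 and Rpl18 stayed low, between 2.60% and 10.8% and between 0.726% and 5.11%.

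Among the other members past 10 points, Rpl10, which joins the large subunit late in its assembly, either spliced or retained its first intron. The spliced form held 72.9% of 12268 counts in amacrine cells and between 50.8% (cones) and 60.9% (ganglion cells) in the other 5 classes. Rpl13a, a protein of the large subunit that also takes part in translational control in myeloid cells, had 6 isoforms, and its main one, a processed transcript in M21 with no coding sequence and a 161-nt first exon, ranged from 65.2% in Müller glia to 81.4% in amacrine cells. The annotated coding form of Rpl13a held 4.18% in amacrine cells and 10.4% in Müller glia. Rpl7l1 kept between 84.1% (bipolar cells) and 98.5% (ganglion cells) on its 7-exon form, the rest lying on an unannotated 3-exon form. Rpl17 kept between 86.2% (cones, 123 counts) and 98.0% (amacrine cells) on its main form.

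Rpl22l1 differed by 13.3 points. Its 4 isoforms combine a second exon of 90 or 93 nt with a longer or shorter exon after it. The unannotated form with the longer exon (189 in place of 122 nt) held 13.6% of 54665 counts in rods, 9.32% in Müller glia, 6.77% in cones, 6.18% in bipolar cells, 4.01% in amacrine cells and 1.34% of 8269 in ganglion cells. The annotated form with that exon, which M21 lists as a target of nonsense-mediated decay, ran likewise from 6.27% in rods to 0.568% in ganglion cells. Rpl22l1 was thus most abundant in amacrine and ganglion cells, and there its long-exon forms had their smallest shares.

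Isoforms outside the annotation carried little of the ribosomal protein counts. They held 64776 of 22649561 member counts, or 0.286% (0.284 to 0.288), against 7.43% of all other counts. Those other counts include unnamed loci without an Ensembl gene, which the name rule could not pick. The members' share ran from 0.191% in Müller glia to 0.330% in cones. Of 414 splice junctions in the member models, 390 are in M21, and transcripts typed as protein coding held 99.1% of member counts. The most abundant unannotated isoform belonged to Rpl15, a large subunit protein. It joins 3 exons and ends in a last exon of 1494 nt in place of 357 nt. It held 9.86% of Rpl15 counts in amacrine cells and 8.93% in ganglion cells, against 2.24% in rods, 3.22% in Müller glia, 5.13% in cones and 5.92% in bipolar cells.

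An unannotated Rpl10a isoform was seen mainly in photoreceptors. Its first exon is 448 nt in place of 36 nt. Further on, exons of 314 and 104 nt stand in place of those of 81, 149 and 173 nt. This isoform held 6.0% of 12393 counts in cones and 5.20% of 132430 in rods. The share was 0.877% in Müller glia, 0.222% in bipolar cells and 0.0573% in amacrine cells, and 0 of 5450 in ganglion cells, which allows up to 0.0677%. Rpl10a, of the L1 stalk of the large subunit, is a protein that has been tagged for ribosome purification in mice. The unannotated isoform of Rpl28 stayed between 1.73% and 2.89%, and the more abundant of the 2 of Rpl13a between 2.83% and 3.47%.

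Rpl4, whose protein reaches into the exit tunnel, stood apart in the number of its isoforms: 12, on only 235 counts. The full-length transcript of 10 exons held 40 of these, and each of the 11 unannotated isoforms lacked between 1 and 6 of the 10 exons. No class but amacrine cells (76), rods (73), bipolar cells (61) and Müller glia (20) had more than 3 counts of Rpl4.

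The 81 genes took 15.1% of all counts. Bipolar cells gave them 17.4% of counts, Müller glia 16.9%, amacrine cells 15.9%, ganglion cells 14.6%, rods 13.6% and cones 11.1%, and the widest interval, that of ganglion cells, ran from 14.56 to 14.64%. The share is part of a fixed total, so a few abundant genes of a class lower it: without the 10 highest other genes of each column bipolar cells were at 19.6%, Müller glia at 19.4%, amacrine cells at 17.1%, rods at 16.8%, ganglion cells at 16.3% and cones at 13.8%. Cones stayed lowest, and rods passed ganglion cells. Small and large subunit genes were not in the same ratio everywhere: counts on Rps over Rpl genes were 0.727 in amacrine and 0.734 in ganglion cells, and between 0.855 and 0.882 in the other 4 classes.

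**Figure D3:**
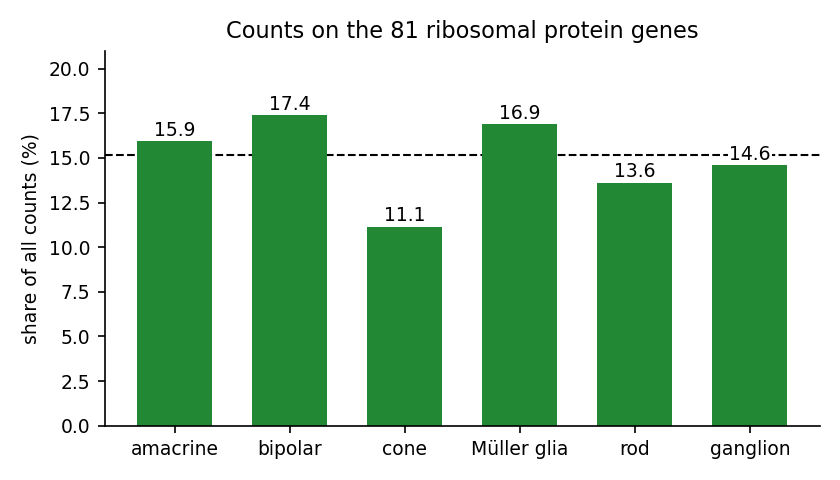
Share of all counts on the 81 ribosomal protein genes (vertical axis, percent, from 0) in each class column; the dashed line is the share over all columns, 15.1%. Bars run from 11.1% in cones to 17.4% in bipolar cells.

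Single members spanned several orders of magnitude. Each count was taken as 1 cDNA, so CPM was compared between genes with no length term. Whether amplification copies were collapsed is not stated, and an effect of cDNA length on the counts was not tested. Rpl13, Rplp1, Rps27a, Rps24 and Rpl23 were among the 6 highest. In all, 55 of 81 averaged at least 1000 CPM over the 6 classes and 3 averaged under 10 CPM. Rpl13, a large subunit protein, reached 7136 CPM in amacrine cells, 6050 in ganglion cells, 5326 in bipolar cells, 5261 in Müller glia, 3697 in rods and 2842 in cones. Rplp1, of the acidic stalk that recruits the elongation factors, went from 6403 CPM in Müller glia to 3647 in ganglion cells. Rps27a, made as a fusion with ubiquitin, went from 5983 CPM in Müller glia to 3614 in cones. Rpl23, of the large subunit, went from 5081 CPM in Müller glia to 2729 in cones. By this scaling cones were lowest in 3 of these 5, and ganglion cells in Rplp1 and Rps24.

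At the other end, Rpl39l had 11 counts in all (8 in amacrine cells and 3 in bipolar cells), Rpl24 had 130 and Rpl4 235. Rpl39, a small protein lining the exit tunnel, had 2278 counts: 19.2 CPM in amacrine cells, 15.8 in Müller glia, 15.1 in cones, 14.9 in bipolar cells, 12.6 in rods and 3.42 CPM (12 counts) in ganglion cells. Rpl4, Rpl24 and Rpl39 encode core proteins of the large subunit. Of the 81 members, 76 have at least 1 near-identical copy among the M21 transcripts (95% identity over 80% of the coding sequence), with a median of 5 and up to 57 for Rpl21, and how reads were shared between copies is not stated. The part of this in the low levels was not tested.

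In 6 members such a copy is itself in the table. Rpl9-ps6, outside the rule by its name and protein coding in M21, held 89474 counts against 40860 for Rpl9, or 68.6% of the sum, at 402 to 679 CPM in every class. Rps27rt, a near-identical copy of Rps27 by that rule, held 6426 against 10537. Gm45713, which overlaps Rpl13a and shares 6 of its splice junctions, held 24865 counts against 80219, and Gm28037, which overlaps Rpl24, held 165 against 130. With Gm45713 added, Rpl13a was at 1187 CPM in amacrine cells, 923 in ganglion cells, 689 in bipolar cells, 371 in rods, 303 in Müller glia and 292 in cones, so amacrine and ganglion cells stayed the 2 highest. The values of Rpl9, Rpl13a, Rpl24 and Rps27 are therefore uncertain as levels of single genes.

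By class, 27 of 81 members were highest in Müller glia (background 17.9% of all genes), 26 in bipolar cells (background 15.9%), 17 in amacrine cells (background 22.5%), 8 in ganglion cells (background 12.1%), 3 in rods (background 23%) and 0 in cones (background 8.61%). Of the 80 with a single lowest class, 46 were lowest in cones (background 8.64%), 13 in ganglion cells (background 28.4%), 8 in Müller glia (background 12.1%), 7 in amacrine cells (background 5%), 5 in rods (background 5.59%) and 1 in bipolar cells (background 3.11%). The backgrounds for the lowest class are shares of all 16256 genes and loci, those tied for lowest included, which makes them lower. No background of class order was matched to the members for depth. The class order depends on the scaling. With a trimmed mean of M-values ganglion cells were lowest in 40 and cones in 19. With the median of ratios cones were lowest in 24 and Müller glia highest in 50. The trimmed mean moved all log2 values against rods by -0.25 in ganglion cells and 0.18 in cones, and the median of ratios by 0.38 in Müller glia, 0.26 in cones and 0.12 in ganglion cells. Bipolar cells and Müller glia were the 2 highest classes in 35 of 81 members (43.2%), beside a background of 13.7% of all genes for that pair at either end. With the 2 other scalings this pair was at either end, the 2 highest or the 2 lowest classes, in 38 and 39 members. This pair was singled out after its values were seen. Red cell genes were at 10272 CPM in Müller glia and 1229 in bipolar cells, and at 2114 in rods, which were highest in 3 members. Their part was not tested.

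Amacrine and ganglion cells were the 2 highest classes in 19 members and the 2 lowest in 10, together 35.8% of the 81, near the background of 31.5%. The members thus paired these classes about as often as genes at large.

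Against rods, few members differed by 2-fold in (CPM + 1). In amacrine cells 9 were at least 2-fold higher (background 17.4% of 16256 genes and loci) and 3 at least 2-fold lower (background 18.1%), with a median log2 fold of 0.25 against -0.01 in all genes. In bipolar cells 7 were higher (background 12.7%) and 0 lower (background 13.2%), with a median of 0.34 against 0.00. In cones 1 was higher (background 5.43%) and 0 lower (background 11.7%), with a median of -0.26 against -0.13. The single member higher in cones was Rps14, and the 7 in bipolar cells were Rpl13a, Rpl17, Rpl18, Rpl30, Rpl35a, Rps14 and Rps27.

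In Müller glia 5 were higher (background 16%) and 1 lower (background 18.4%), with a median log2 fold of 0.37 against -0.10 in all genes, and in ganglion cells 6 were higher (background 14.3%) and 3 lower (background 27.3%), with a median of 0.02 against -0.24. The last 2 splits depend on the scaling. With the trimmed mean of M-values ganglion cells had 3 higher and 7 lower, with a members' median that turned from 0.02 to -0.21, and with the median of ratios 11 higher and 2 lower, while Müller glia then had 19 higher and 0 lower.

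**Figure D4:**
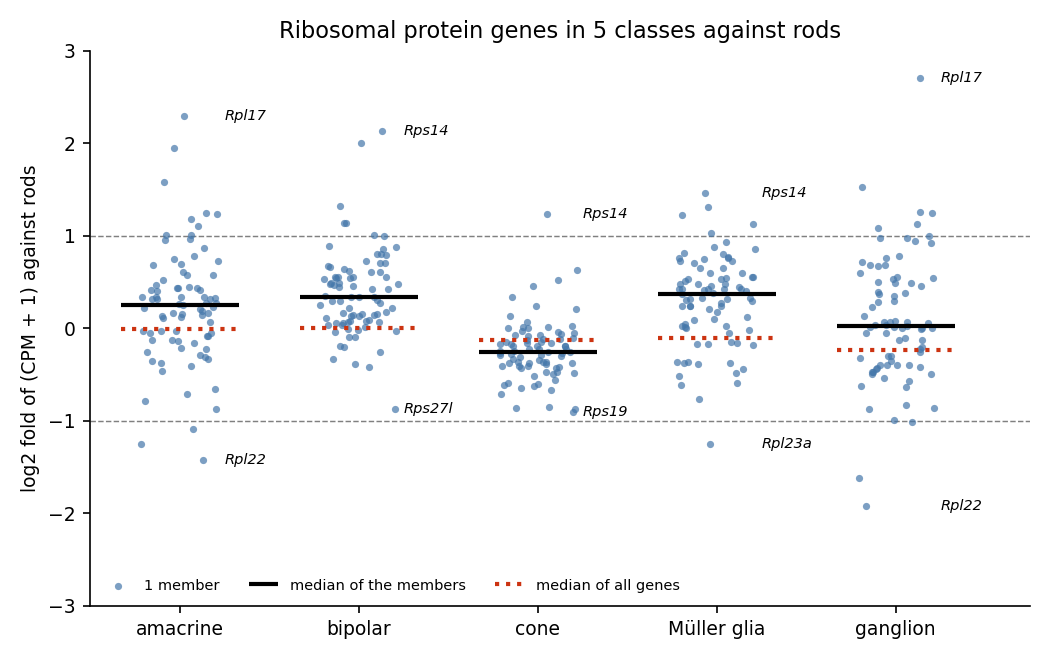
Log2 fold of (CPM + 1) against rods (vertical axis) for each of the 81 members in 5 classes, 1 point a member, spread sideways for sight only. Black lines are the members' medians and dotted red lines those of all genes; dashed grey lines mark 2-fold. The highest and the lowest member of each class are named.

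Taking each member's log2 fold minus the members' median in that class, 15 of 81 were more than 1 away in at least 1 class of 5, beside a background of 65.9% of all genes taken against the median of all genes. That background was not matched for depth: it takes in every gene and locus with 10 counts, while 70 of the 81 members averaged at least 100 CPM. Of the 15, 9 are Rpl and 6 are Rps genes. In amacrine cells 8 were apart, in ganglion cells 10, in bipolar cells 3, in Müller glia 3 and in cones 1. The same 15 were apart when annotated isoforms alone were counted and when 100 counts were asked for.

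Rpl22 was lower and its copy Rpl22l1 higher in amacrine and ganglion cells than in the other 4 classes. Rpl22 encodes an RNA-binding protein of the large subunit, and Rpl22l1 a close relative that can take its place. Rpl22 was at 1394 CPM in Müller glia, 1039 in rods, 908 in bipolar cells, 683 in cones, 385 in amacrine cells and 274 in ganglion cells. Rpl22l1 was at 761 CPM in Müller glia, 986 in rods, 1356 in bipolar cells, 804 in cones, 2962 in amacrine cells and 2356 in ganglion cells. The 2 classes with the least Rpl22 had the most Rpl22l1.

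Rpl22l1 made up 89.6% of the summed counts of the pair in ganglion cells and 88.5% in amacrine cells (88.3 to 88.6). It made up 59.9% in bipolar cells, 54.1% in cones, 48.7% in rods and 35.3% in Müller glia (34.5 to 36.1). The ratio of the copy to the gene thus went from 0.546 in Müller glia to 8.59 in ganglion cells. As a ratio within a column it does not change with scaling. Against rods Rpl22 was at 0.37-fold in amacrine and 0.26-fold in ganglion cells, and Rpl22l1 at 3.0-fold and 2.39-fold.

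**Figure D5:**
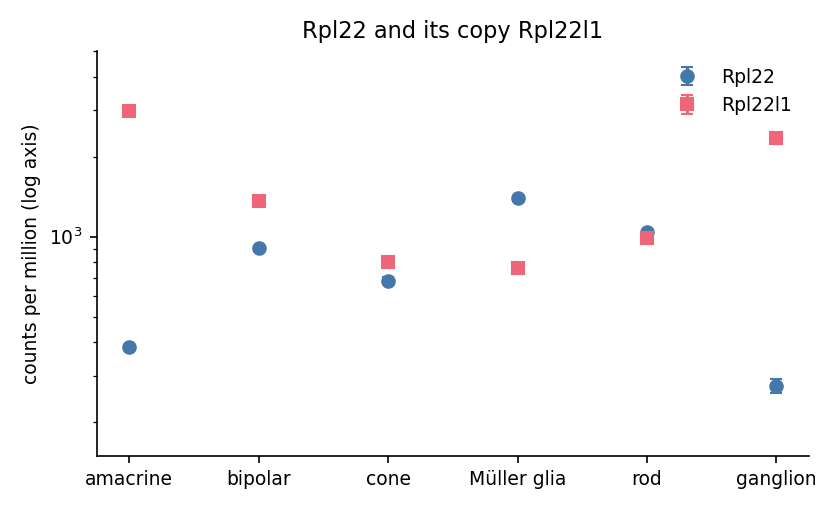
Level of Rpl22 (circles) and Rpl22l1 (squares) in CPM on a log axis, by cell class, with exact 95% Poisson intervals where larger than the symbol. The squares lie far above the circles in amacrine and ganglion cells and below them in Müller glia.

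Rps27 and its copy Rps27l, which is known as a p53 target, had another order. Rps27l made up 90.8% of the summed counts in rods, 88.2% in Müller glia, 86.4% in cones, 73.1% in ganglion cells, 70.0% in amacrine cells and 56.8% in bipolar cells. Rps27l was highest in Müller glia at 630 CPM and between 179 and 329 CPM elsewhere, whereas Rps27 was highest in bipolar cells at 136 CPM and lowest in rods at 33.2 CPM. Rps27rt was at 21.9 CPM in ganglion cells to 70.8 CPM in bipolar cells, and how its reads were told from those of Rps27 is not stated. Rpl7l1, a biogenesis factor, stayed between 2.11% and 3.14% of its sum with Rpl7 in all 6 classes. Rpl7 itself went from 3815 CPM in Müller glia to 1656 in cones.

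Other large subunit genes were high in amacrine and ganglion cells alike. Rpl17, at the tunnel exit, was at 79.5 CPM in ganglion cells (279 counts), 59.5 in amacrine cells and 26.2 in bipolar cells, against 11.4 in rods, 16.3 in Müller glia and 16.8 in cones, or 6.50-fold and 4.89-fold of rods in the first 2. Rpl13a was at 968 CPM in amacrine cells, 723 in ganglion cells, 503 in bipolar cells, 251 in rods, 194 in cones and 178 in Müller glia. Rpl14 was at 3650 and 3262 CPM in amacrine and ganglion cells against 1303 to 1894 CPM elsewhere, and Rpl31 at 1376 and 1397 CPM against 483 to 713. In each of these 4 genes both classes lay above the other 4.

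Besides Rpl22, 3 of the members apart in amacrine cells were lowest in amacrine and ganglion cells. Rps20, of the head of the small subunit, was at 1119 CPM in amacrine and 1334 in ganglion cells, and at 2272 in cones, 2660 in rods, 2774 in bipolar cells and 3649 in Müller glia. Rpsa, which is also known as the laminin receptor precursor, was at 1168 and 1234 CPM, against 1936 in Müller glia, 2240 in cones, 2445 in bipolar cells and 2492 in rods. Rpl5, which carries the 5S RNA into the large subunit, was at 487 CPM in amacrine cells and 626 in ganglion cells and reached 1388 in bipolar cells. Fold changes against rods in amacrine cells were 0.42 for Rps20, 0.47 for Rpsa and 0.58 for Rpl5.

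Few members set Müller glia and bipolar cells apart. Rpl23a, beside the tunnel exit, was lowest in Müller glia at 545 CPM, against 708 in cones, 969 in bipolar cells, 1297 in rods, 1724 in amacrine cells and 2086 in ganglion cells. Rps10 was highest in Müller glia at 5118 CPM, 2.34-fold of rods. In bipolar cells Rps14 was at 62.8 CPM and Rps27 at 136 CPM, 4.39-fold and 4.00-fold of rods, and both were also over 2-fold in Müller glia. Rps14 was the sole member over 2-fold higher in cones (33.1 CPM against 13.5 in rods), where Rpl30 was at 70.6 CPM against 45.2, and Rpl23a and Rps19 had the lowest values relative to the other members, at 0.55-fold and 0.53-fold of rods.

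The stalk genes were not among the members apart. Rplp0, the base of the stalk, was at 2244 CPM in Müller glia and between 1246 and 1472 in the other 5 classes, and Rplp2 was at 3062 CPM in rods and 1998 to 2669 elsewhere. Rpl3, at the peptidyl transferase centre, was at 3848 CPM in bipolar cells, 3638 in ganglion cells and 3517 in amacrine cells, and at 2076 to 2143 in the other 3. Rps4x, an X-linked small subunit gene, went from 3427 CPM in bipolar cells to 1758 in cones.

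The 5′ ends of the models were read against RefSeq promoter sequences (GRCm38.p6), which hold 61 of the 81 members and reach the end of the main model in 36. The search asked, on the gene's strand alone, for a C at the model's 5′ end that opens a run of at least 5 bases made of C and T only. Of the 36 members, 10 (27.8%) had it, against 98 of 5106 other genes (1.92%) in windows of the same length, and 14 of 36 (38.9%) began with C, against 14.4%. The 4 longest are printed because they show the pyrimidine start that these mRNAs are known for, each with 10 bases before the end and the run in capitals.
Rps24 chr14:24490708-24490737, plus strand: gtgagcggtcCTCTTTTCCTCCTCTCCagc
Rpl27a chr7:109519186-109519215, plus strand: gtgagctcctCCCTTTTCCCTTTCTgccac
Rpl34 chr3:130730328-130730357, minus strand: ccgccccttcCTTTTCCTCTTCCggggacg
Rps19 chr7:24884623-24884652, plus strand: ccccgtcgttCCCTTTCCCCTggctggcag
The runs are 17, 15, 13 and 11 nt long. Only 8 of 105 annotated models have the ends of M21, so a model's 5′ end need not be the start of transcription. The match describes letters in these windows and says nothing of translation.

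From rods to Müller glia Rpl27a went from 1947 to 3296 CPM, Rpl34 from 1771 to 2563, Rps24 from 4175 to 5431 and Rps19 from 2161 to 2614. In ganglion cells Rps19 was at 3139 CPM, above rods, and Rps24 at 3073 CPM, below them.

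Of 9 other mRNAs known for a pyrimidine start, Eef1a1 and Eef2 among them, 2 were at least 2-fold higher and 1 lower in Müller glia against rods, 1 and 1 for bipolar cells, 0 and 1 for cones, 0 and 2 for amacrine cells, and 0 and 2 for ganglion cells, where in the order Müller glia, bipolar cells, cones, amacrine cells, ganglion cells 16%, 12.7%, 5.43%, 17.4% and 14.3% of all genes were higher and 18.4%, 13.2%, 11.7%, 18.1% and 27.3% lower. The counts of this list and the next ones were not computed under other scalings. Its median log2 folds were 0.04 (amacrine), 0.55 (bipolar), -0.17 (cone), 0.54 (Müller glia) and -0.19 (ganglion), against -0.01, 0.00, -0.13, -0.10 and -0.24 for all genes. Tpt1, the growth-related protein TCTP, was at 9167 CPM in Müller glia, 4416 in bipolar cells, 4371 in rods, 3890 in cones, 2025 in ganglion cells and 1716 in amacrine cells. Vim, an intermediate filament gene of Müller glia, was at 2571 CPM there and listed at 0 in ganglion cells. Pabpc1, the poly(A)-binding protein, was the lowest at 11.7 CPM in Müller glia to 51.2 in amacrine cells.

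Of 9 elongation factors, 3 were higher and 1 lower in amacrine cells, 2 and 0 for bipolar cells, 0 and 0 for cones, 2 and 1 for Müller glia, and 2 and 2 for ganglion cells. The backgrounds were 17.4% and 18.1% (amacrine), 12.7% and 13.2% (bipolar), 5.43% and 11.7% (cone), 16% and 18.4% (Müller glia) and 14.3% and 27.3% (ganglion). In the same order their median log2 folds were 0.53, 0.77, -0.04, 0.17 and 0.40. Eef1a1, which brings aminoacyl-tRNA to the ribosome, was at 3640 CPM in bipolar cells, 3106 in Müller glia, 2011 in cones, 1936 in amacrine cells, 1874 in rods and 1639 in ganglion cells, so the 2 classes with the largest ribosomal protein shares were also its highest. Eef1d was at 615 CPM in Müller glia and 16.2 in ganglion cells, against 142 in rods. Eef1a2, the form of mature neurons, had 96 counts, with 5.13 CPM in ganglion cells and at most 1.38 elsewhere.

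Of 30 initiation factors, 6 were higher and 6 lower in amacrine cells, 2 and 6 for bipolar cells, 1 and 1 for cones, 3 and 8 for Müller glia, and 3 and 9 for ganglion cells. The backgrounds were 17.4% and 18.1% (amacrine), 12.7% and 13.2% (bipolar), 5.43% and 11.7% (cone), 16% and 18.4% (Müller glia) and 14.3% and 27.3% (ganglion). Eif3b, a scaffold subunit, was at 1059 CPM in cones and between 12.2 and 41.3 in the other classes. Eif1, which guards start codon choice, was at 3038 CPM in amacrine cells and 977 in Müller glia, and Eif4g1, the lowest by mean level, had 50 counts in all. Their median log2 folds were -0.12, 0.04, -0.05, -0.26 and -0.04 in the columns of amacrine, bipolar and cone cells, Müller glia and ganglion cells.

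Of 15 ribosome biogenesis genes, 1 was higher and 5 lower in amacrine cells, 0 and 2 for bipolar cells, 0 and 1 for cones, 0 and 5 for Müller glia, and 4 and 4 for ganglion cells. The backgrounds were 17.4% and 18.1% (amacrine), 12.7% and 13.2% (bipolar), 5.43% and 11.7% (cone), 16% and 18.4% (Müller glia) and 14.3% and 27.3% (ganglion). Their median log2 folds were -0.63, -0.41, -0.65, -0.84 and -0.28, against -0.01, 0.00, -0.13, -0.10 and -0.24 for all genes. The ganglion cell median of all genes depends on the settings. It was -0.57 when 100 counts were asked for and -0.93 with a pseudocount of 0.1. How near these genes were to genes at large there is thus not settled. Nop10, of the box H/ACA particles, was the highest, at 927 CPM in ganglion cells and 905 in amacrine cells against 430 to 511 elsewhere, and Polr1a, the large subunit of RNA polymerase I, the lowest, with 430 counts. The 77 mitochondrial ribosomal proteins, which serve another ribosome, had 10 higher and 6 lower in amacrine cells, 2 and 3 for bipolar cells, 1 and 1 for cones, 2 and 9 for Müller glia, and 10 and 10 for ganglion cells, beside the same backgrounds. Their median log2 folds were 0.14, -0.03, -0.0049, -0.38 and 0.13. Their summed level was 17744 CPM in amacrine cells, 14290 in rods and 11395 in Müller glia. Mrps33 was the highest at 636 to 1172 CPM, Mrpl53 had 18 counts, all in amacrine cells, and Mrps2 was at 0.326 CPM in Müller glia against 12.4 in rods.

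Fau and Rpl36al encode ribosomal proteins that the name rule leaves out. Fau was at 5957 CPM in amacrine cells, 4677 in ganglion cells, 4390 in Müller glia, 3850 in bipolar cells, 3787 in rods and 2810 in cones. Rpl36al was at 2.74 to 7.21 CPM in 5 classes and at 0 in ganglion cells, where 3 counts would be 0.855 CPM.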

How the data were processed

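Long-read cDNA from 4 single-cell libraries was counted per isoform and cell class by the authors. The deposited values are whole-number counts with no scaling seen, 1 column a class, recorded here under the unit other. The deposited models give exon starts and ends and name FLAIR as their source. The build is mm10 per the submitters' processing notes. Counting, cell calls, treatment of copies and doublets are not given in the sources used here. Of 13452 Ensembl genes, 13448 matched a symbol. CPM is counts over the column total times 1000000. Folds are of (CPM + 1) against rods for genes with 10 counts. Isoform shares were compared among classes with 100 counts. With 1 pooled column a class no test was made, and a rule of size stands in its place: 2-fold, 1 on the log2 scale from the members' median, 10 or 50 percentage points. Trimmed-mean and median-of-ratios scalings were computed from their formulas, with no count model. Isoform structure came from GENCODE M21, copies from BLAST 2.17.0, values from Python 3.11.15 with pandas 2.3.3 and SciPy 1.17.1, figures from matplotlib 3.10.9. The rules were tested on simulated data. Genes named are the highest and lowest members, those with the largest differences in level and isoform share, the copies, the stalk genes, members with most or unannotated isoforms, and the extremes of each list; other members named were chosen after their values were seen. Members and lists were chosen with earlier results of these data known. Some genes that these rules pick are not reported here.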

Additional observations from a re-analysis of the deposited data

How the results depend on the processing

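No paired analysis was possible because each class is a single pooled column without replicate numbers. Of 103 alternative values, 66 stayed within the interval or within 1.5 times of the reported one and 37 moved. Shares of counts moved by more than their narrow intervals under each alternative. Without the copies Rpl7l1, Rpl22l1, Rpl39l and Rps27l they were 15.6% (amacrine), 17.2% (bipolar), 11.0% (cone), 16.7% (Müller glia), 13.5% (rod) and 14.3% (ganglion). With annotated isoforms alone they were 16.9%, 18.3%, 11.8%, 17.9%, 14.7% and 15.3% in the same order, and without the 10 highest other genes 17.1%, 19.6%, 13.8%, 19.4%, 16.8% and 16.3%. Members at least 2-fold from rods became 3 higher and 7 lower in ganglion cells with a trimmed mean of M-values, where the reported split was 6 and 3 and the members' median turned from 0.02 to -0.21 (-0.0035 with annotated isoforms alone), and 11 higher in ganglion cells, 19 higher and 0 lower in Müller glia, with the median of ratios. A pseudocount of 0.1 gave 2 lower in cones. At 1.5-fold, higher and lower were 18 and 7 in amacrine cells, 22 and 1 in bipolar cells, 2 and 11 in cones, 21 and 4 in Müller glia, and 18 and 9 in ganglion cells. Isoform switches fell to 1 at 1000 counts a class and to 1 without the ganglion cell column, and changes of isoform share to 3 at 25 points. Thinning every column to 3509890 counts left a mean of 9.05 members changed over 20 draws. Members with a changed share numbered 7 to 11 under the other rules, and members apart 15 to 18. The causes were not tested. Depth limits Rpl4, Rpl24 and Rpl39l, and most low members in ganglion cells, where 3 counts are 0.855 CPM.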
